A study of Mus musculus with 64 samples.

Results

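The genes described here were the 2 corticosteroid receptors and the proteins that hold, fold and feed them: the glucocorticoid receptor gene Nr3c1, the mineralocorticoid receptor gene Nr3c2, the immunophilin genes Fkbp4 and Fkbp5, the cytosolic Hsp90 genes Hsp90aa1 and Hsp90ab1, the co-chaperone genes Ptges3 and Stip1, and Hsd11b1, which encodes an enzyme of corticosteroid metabolism. Their rows were taken by gene symbol. All 9 were present in every deposited table, among 18257 genes found in the tables of both hippocampal regions. The libraries were made from the dorsal (dHPC) or ventral (vHPC) hippocampus of C57BL/6 mice. The mice were wild-type (WT) or heterozygous for the BDNF Val66Met variant (hMet), males and females, and from 2 months of age drank either vehicle (1% ethanol) or corticosterone (CORT, 25 mg/l in the same ethanol) for 6 weeks. Every combination of sex, genotype, treatment and region had 4 libraries in the labels, 64 libraries in 16 groups, and each library pooled RNA from 2 animals, so that a library is not a single mouse. One protocol text counts 3 biological replicates where 4 libraries are listed, and the series design gives a shorter treatment than the 6 weeks stated elsewhere.

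Corticosterone acts in the hippocampus through both receptors. The mineralocorticoid receptor binds it with the higher affinity and is largely occupied at resting hormone levels, whereas the glucocorticoid receptor is occupied mainly at the daily peak and during stress. Before hormone binds, each receptor is carried by a chaperone machine: Hsp70 passes the newly folded receptor to Hsp90 through the adaptor Hop (Stip1), p23 (Ptges3) stabilises the mature complex, and an immunophilin takes the last place. FKBP52 (Fkbp4) favours hormone binding and transport of the receptor to the nucleus, FKBP51 (Fkbp5) lowers the affinity for hormone, and Fkbp5 is itself induced by the glucocorticoid receptor. The enzyme encoded by Hsd11b1 regenerates active corticosterone inside the cell from its inactive keto form.

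The values available here were averages. For every gene and region, the deposited tables hold the mean over that region's libraries of log2 CPM (the base-2 logarithm of read counts scaled to a common library total, so that 1 unit is 2-fold). This mean pools vehicle and CORT, both sexes and both genotypes. No value per library was analysed here, so the levels below carry no spread and no test, and a difference between regions is a description. How CORT changed these genes is not given, because the tables hold it only as the comparisons made by the study. Tables of the 2 regions were normalized separately, each level set across regions rests on that, and a gene was counted as differing only where the averages were over 1.3-fold apart. The labels state 35000000 to 40000000 reads of 75 bases per library. The total count of each library is unknown here. Residual degrees of freedom in the tables were 24 in the dHPC, as 32 libraries in 8 groups give, and 22 in the vHPC, and the tables do not say what the missing 2 stand for.

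Some of these genes are copies of one another, and how far reads can tell them apart bears on their levels. Coding sequences of the 2 receptors were identical at 60.2% of aligned bases (1415 of 2351), those of the 2 immunophilins at 62.6% (842 of 1345) and those of the 2 Hsp90 genes at 76.2% (1656 of 2172). The longest identical run was 17 bases for Nr3c2 and Nr3c1, 13 for Fkbp4 and Fkbp5 and 33 for Hsp90ab1 and Hsp90aa1, in each case shorter than a read of 75 bases. The most alike stretch of read length is shown for the immunophilins, from the annotated coding sequence on GRCm38, 5′ to 3′ on the minus strand that both genes use, with differing bases in capitals. The Fkbp4 stretch lies within chr6:128433251-128433559 and the Fkbp5 stretch within chr17:28406230-28410543, each split over an intron.
Fkbp4: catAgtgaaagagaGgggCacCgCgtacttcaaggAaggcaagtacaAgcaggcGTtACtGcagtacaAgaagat
Fkbp5: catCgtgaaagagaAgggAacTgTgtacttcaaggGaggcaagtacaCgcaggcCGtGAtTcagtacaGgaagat
Even here 13 bases differed. The closest stretch of the Hsp90 genes, within a single exon each, differed at 8 bases and is shown because these are the most alike members. It lies at chr17:45571813-45571887 for Hsp90ab1 and at chr12:110695567-110695641 for Hsp90aa1, both on the minus strand.
Hsp90ab1: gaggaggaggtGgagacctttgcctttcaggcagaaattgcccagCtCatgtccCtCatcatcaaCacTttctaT
Hsp90aa1: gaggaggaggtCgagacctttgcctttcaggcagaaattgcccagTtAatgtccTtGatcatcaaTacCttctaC
The members therefore shared no read-length stretch with their own paralogue, and what they shared was with other genes, described beside the members concerned.

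Both receptors were expressed in both regions, and the mineralocorticoid receptor gene had the higher level. Nr3c1 (ENSMUSG00000024431, chromosome 18 of GRCm38, 39410545 to 39519421, minus strand) averaged 6.65 log2 CPM in the dHPC and 6.53 in the vHPC, which is a geometric mean of 101 and 92.1 CPM. The difference, dHPC minus vHPC, was 0.13 on the log2 scale (1.09-fold), and 64.7% of all genes had a smaller one, so that Nr3c1 lay near the middle of the genome. Nr3c2 (ENSMUSG00000031618, chromosome 8, 76899442 to 77245012, plus strand) averaged 7.82 and 7.51 log2 CPM, a geometric mean of 226 and 182 CPM. Its difference of 0.31 (1.24-fold) was above that of 83.6% of all genes and stayed within the 1.3-fold limit. Set against the neuron markers Rbfox3, Snap25, Syt1, Slc17a7, Gad1 and Gad2, whose median difference was -0.09, the Nr3c2 difference was 0.40 and passed the limit. Set against 9 reference genes, whose median difference was 0.11, it was 0.20, and that of Nr3c1 was 0.02.

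Levels of different genes were compared per kb of exon, that is, as average log2 CPM minus the base-2 logarithm of the length of all annotated exons merged. On this scale Nr3c2 was at 5.13 in the dHPC and 4.82 in the vHPC and Nr3c1 at 3.71 and 3.58. The balance of Nr3c2 over Nr3c1 was 2.66-fold in the dHPC and 2.35-fold in the vHPC. With the coding length it was smaller, 1.81-fold and 1.59-fold. Nr3c2 stayed above Nr3c1 in both regions with every length tried. No 75-base window of Nr3c1 occurred in an annotated transcript of another gene. Of Nr3c2, 99 of 6685 windows (1.48%) did, all of them in Gm10649, a non-coding RNA on the opposite strand that starts beside it and overlaps 247 bases of its exons. Gm10649 averaged 1.54 log2 CPM in the dHPC and 1.79 in the vHPC, far below Nr3c2. The kit marks strand, but the strand setting of the counting is not given in the sources used here.

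**Figure D1:**
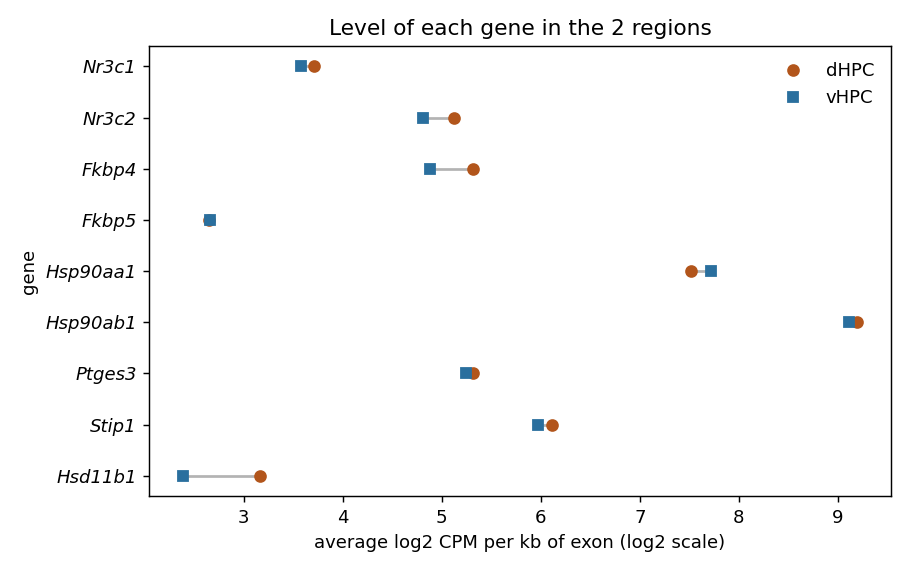
Average level of each of the 9 genes per kb of merged exon (x axis, log2 CPM per kb) in the dHPC (circles) and vHPC (squares); each symbol is the authors' mean over a region's libraries, with no spread used. Hsp90ab1 (9.19 and 9.12) and Hsp90aa1 (7.52 and 7.72) lie to the right of all others, and Hsd11b1 (3.17 and 2.39) shows the widest gap between regions.

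The immunophilins differed from each other both in level and in the contrast between regions. Fkbp4 (ENSMUSG00000030357, chromosome 6, 128429735 to 128438677, minus strand) averaged 6.80 log2 CPM in the dHPC and 6.36 in the vHPC, a geometric mean of 112 and 82.3 CPM. Its difference of 0.44 was 1.36-fold, above that of 91.1% of all genes, and it was among the 2 members past the limit. Relative to the reference genes the difference was 0.33 and inside the limit, so the Fkbp4 call depended on the scale chosen. Fkbp5 (ENSMUSG00000024222, chromosome 17, 28399094 to 28517527, minus strand) averaged 5.89 log2 CPM in the dHPC and 5.91 in the vHPC, a geometric mean of 59.3 and 60 CPM. The Fkbp5 difference of -0.02 became 0.07 when set against the neuron markers, so no direction can be given.

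Per kb, Fkbp4 stood at 5.32 in the dHPC and 4.88 in the vHPC, and Fkbp5 at 2.65 and 2.66, which placed Fkbp5 last of the 9 in the dHPC and next to last in the vHPC. Fkbp4 over Fkbp5 was thus 6.38-fold in the dHPC and 4.65-fold in the vHPC. This ratio rested on the length used for Fkbp5, whose 15 annotated transcripts merge to 9468 bases of exon while the longest single transcript has 3858. With the longest transcript the ratio was 2.71-fold and 1.98-fold, and with the coding length 1.88-fold and 1.37-fold. Fkbp4 was above Fkbp5 with each of these lengths. The ratio was 1.37-fold higher in the dHPC than in the vHPC. Length cancels between regions, so this contrast could not change with the length used. Hardly any sequence of these 2 genes was shared with other genes (0.681% of windows for Fkbp4, all with Prkrip1, and 0.0205% for Fkbp5, with Riok3, Pik3c2a, Acbd6, Pde12 and Rspry1).

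**Figure D2:**
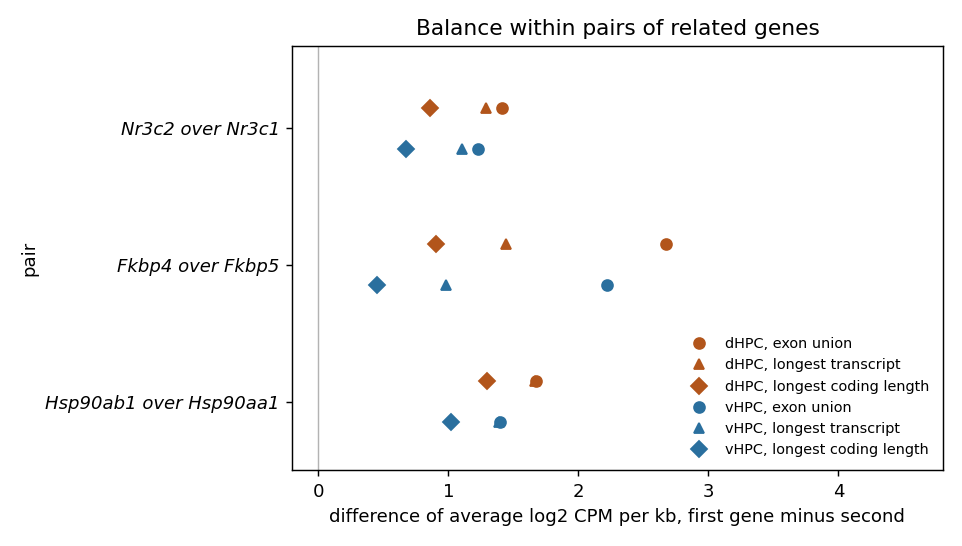
Balance within the 3 pairs of related genes: difference of average log2 CPM per kb, first gene minus second (x axis), in the dHPC (orange) and the vHPC (blue), with the length taken as merged exons (circles), longest transcript (triangles) or coding sequence (diamonds). All points lie above 0, and Fkbp4 over Fkbp5 moves most with the length, from 2.67 to 0.91 in the dHPC. In each pair the dHPC point is the higher, by a gap that length cannot change because it cancels between regions.

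The Hsp90 genes were the most abundant members by far. Hsp90ab1, the constitutive form (ENSMUSG00000023944, chromosome 17, 45567775 to 45573271, minus strand), averaged 10.78 log2 CPM in the dHPC and 10.70 in the vHPC, a geometric mean of 1753 and 1664 CPM. Its level per kb exceeded that of 99.8% of coding genes in each region. The Hsp90ab1 difference of 0.07 became -0.03 relative to the reference genes. Hsp90aa1, the stress-inducible form (ENSMUSG00000021270, chromosome 12, 110690605 to 110702728, minus strand), averaged 9.49 log2 CPM in the dHPC and 9.70 in the vHPC, a geometric mean of 720 and 829 CPM. It was the member with the lowest difference, -0.20, which is 1.15-fold higher in the vHPC, within the limit, and below 0 on each scale tried (-0.31 relative to the reference genes and -0.11 relative to the neuron markers).

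Together the 2 Hsp90 genes made up 76.3% of the members' summed geometric mean CPM in the dHPC (2473 of 3243) and 79.2% in the vHPC (2493 of 3149). The sum was nearly equal in the 2 regions, but Hsp90ab1 took 70.9% of it in the dHPC and 66.7% in the vHPC. Per kb of merged exon, Hsp90ab1 over Hsp90aa1 was 3.19-fold in the dHPC and 2.63-fold in the vHPC. The size of this balance depended on the length used, as described below.

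Hsp90aa1 was also the member whose reads are hardest to place. Of its 3982 distinct 75-base windows, 1703 (42.8%) also occur in annotated transcripts of 3 processed pseudogenes, which are intron-less copies of its messenger RNA. The pseudogenes carried counts of their own. Gm12346, with 1442 shared windows, averaged 7.33 log2 CPM in the dHPC and 7.54 in the vHPC. Gm5844, with 881, averaged 6.67 and 6.83, and Gm5511, with 96, averaged 3.97 and 4.35. How reads that fit several places were treated is not given in the sources used here, and counts of a gene and of its near-identical copy are uncertain to that extent. The 3 pseudogenes together held 27.9% of the sum of Hsp90aa1 and its copies in each region, and each of them was lower in the dHPC (-0.21, -0.16 and -0.39), as Hsp90aa1 was. Because of the shared windows their counts may include reads of Hsp90aa1, so the like direction is no separate evidence. With the CPM of the pseudogenes added to Hsp90aa1, an alternative chosen after the data were seen, the difference between regions was again -0.20. That follows from the values just given and is no further check. Hsp90ab1 over Hsp90aa1 fell to 2.31-fold in the dHPC and 1.90-fold in the vHPC. Hsp90ab1 itself shared 0.537% of its windows. With the windows unique to each gene taken as its length, Hsp90ab1 stood at 9.04 in the dHPC and 8.96 in the vHPC. Hsp90aa1 then stood at 8.30 and 8.51. Hsp90ab1 was still the higher, but the balance was closer than with any other length or with the pseudogenes added.

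**Figure D3:**
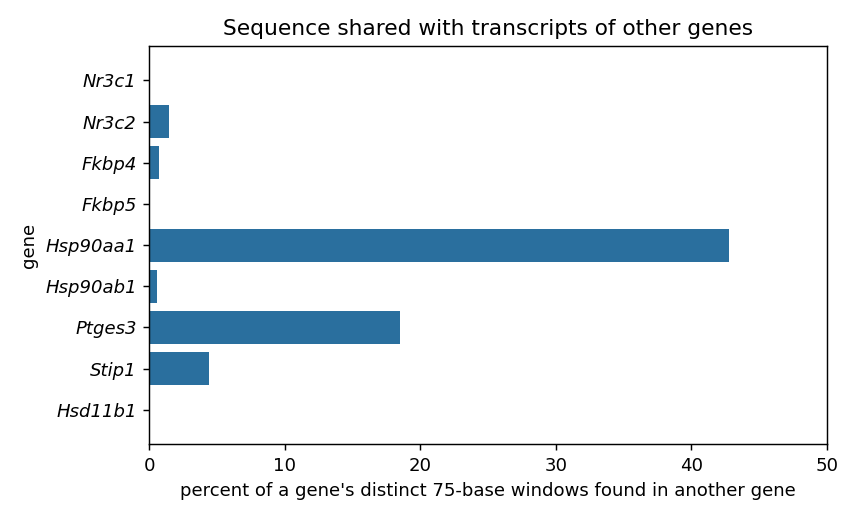
Share of each gene's distinct 75-base windows (x axis, percent) that also occur in an annotated transcript of another gene. Hsp90aa1 (42.8%) and Ptges3 (18.5%) stand out, Stip1 has 4.42%, and the other 6 genes lie between 0 and 1.48%.

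The co-chaperones Stip1 and Ptges3 were at nearly the same level in both regions. Stip1, the Hop adaptor between Hsp70 and Hsp90 (ENSMUSG00000024966, chromosome 19, 7020702 to 7039967, minus strand), averaged 7.19 log2 CPM in the dHPC and 7.05 in the vHPC, a geometric mean of 146 and 133 CPM. Its difference was 0.14, and 0.03 relative to the reference genes. Ptges3, the p23 gene (ENSMUSG00000071072, chromosome 10, 128058954 to 128077272, plus strand), averaged 6.47 and 6.39 log2 CPM, a geometric mean of 88.5 and 83.9 CPM. The Ptges3 difference of 0.08 became -0.03 relative to the reference genes. Per kb, Stip1 was at 6.11 and 5.98 and Ptges3 at 5.32 and 5.24, in the dHPC and vHPC. Ptges3 shared 409 of 2215 windows (18.5%) with other genes, nearly all with the processed pseudogene Ptges3-ps, which averaged 3.92 log2 CPM in the dHPC and 3.98 in the vHPC. Adding the pseudogenes of Ptges3 gave a difference of 0.06. Stip1 shared 90 of 2034 windows (4.42%), all with Cfap20.

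Hsd11b1 showed the widest contrast between regions of the 9 genes. Hsd11b1 (ENSMUSG00000016194, chromosome 1, 193221634 to 193264075, minus strand) averaged 5.26 log2 CPM in the dHPC and 4.48 in the vHPC, a geometric mean of 38.2 and 22.3 CPM. It was 1.72-fold higher in the dHPC, a difference of 0.78 that exceeded that of 97.6% of all genes and of 98.7% of those averaging at least 1 log2 CPM in both regions. The difference was 0.67 relative to the reference genes and 0.87 relative to the neuron markers, so it passed the limit on each scale. No window of Hsd11b1 was shared with another gene. Per kb of merged exon it was at 3.17 in the dHPC and 2.39 in the vHPC, and on this length it changed places with Fkbp5 at the bottom of the order between the regions. With the longest transcript Nr3c1 lay between Hsd11b1 and Fkbp5 in both regions. With the coding length Nr3c1 was last in the dHPC.

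Of the 9 members, 2 (22.2%), Fkbp4 and Hsd11b1, were over 1.3-fold higher in the dHPC, 0 were lower and 7 lay within the limit. Over all 18257 genes, 11.8% were higher and 13.7% lower. Among the 13882 genes averaging at least 1 log2 CPM in both regions, where all members fall, 9.29% were higher and 10.5% lower. The members' median difference was 0.13, against 0.01 over all genes, and 7 of 9 were above 0, against 51.9% of all genes. The 9 reference genes leaned the same way, with a median of 0.11 and 8 above 0. With 9 genes these counts are a description and set nothing apart. Just inside the limit of 0.38 lay Nr3c2 (0.31), and just outside it Fkbp4 (0.44).

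**Figure D4:**
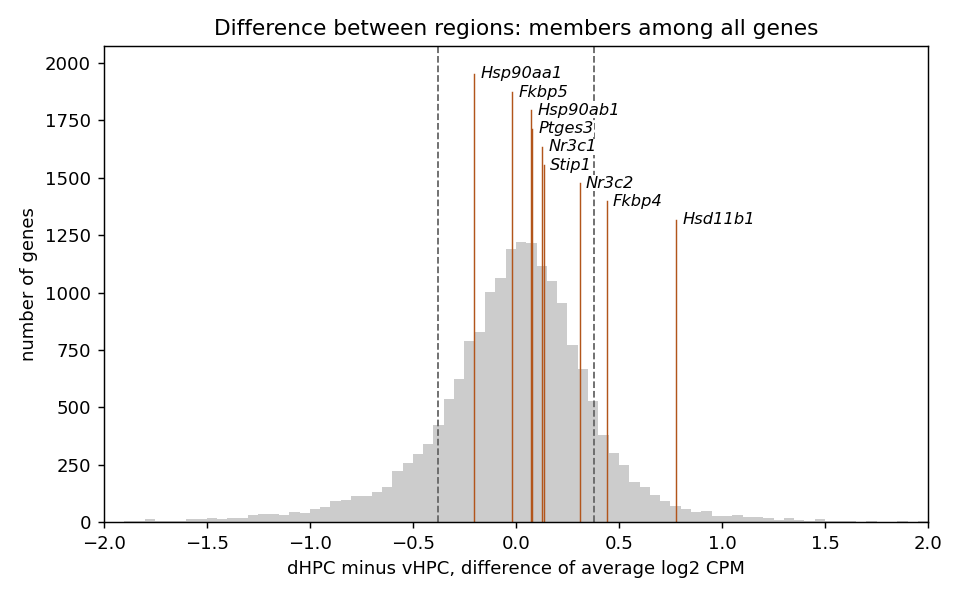
Histogram of the dHPC minus vHPC difference of average log2 CPM over the 18257 genes in both regions (bars, number of genes per bin; the few genes beyond 2 in either direction lie outside the axis), with each member as an orange line and the 1.3-fold limits dashed. Fkbp4 (0.44) and Hsd11b1 (0.78) lie beyond the upper limit, and the other 7 members lie between the limits.

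The order of the members per kb, from the highest in the dHPC, was Hsp90ab1, Hsp90aa1, Stip1, Fkbp4, Ptges3, Nr3c2, Nr3c1, Hsd11b1 and Fkbp5. Fkbp4 and Ptges3 were both at 5.32 there and cannot be ordered. In the vHPC Ptges3 came before Fkbp4 and Fkbp5 before Hsd11b1. Hsp90ab1 and Hsp90aa1 kept the first and second place with each of the 4 lengths tried, while the places from the third on moved with the length. Neighbours further down cannot be said to differ, because no spread over libraries was used here.

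Upstream sequence is shown for the 2 members past the limit. RefSeq's promoter table for GRCm38.p6 had an entry for 6 of the 9 members, each with 250 bases before and 50 after the annotated start. In these windows the letters GAANNTTC and TTCNNGAA (a pair of inverted units of the heat shock element), AGAACA (a glucocorticoid response element unit) and CCAAT (the CCAAT box) were searched on both strands. In the order given, 7.86%, 8.52%, 19% and 37.4% of 32851 promoters held a match. Matches are in capitals. The Fkbp4 window at chr6:128438607-128438906, minus strand, held GAAAGTTC, a match to GAANNTTC, and a CCAAT.
Fkbp4: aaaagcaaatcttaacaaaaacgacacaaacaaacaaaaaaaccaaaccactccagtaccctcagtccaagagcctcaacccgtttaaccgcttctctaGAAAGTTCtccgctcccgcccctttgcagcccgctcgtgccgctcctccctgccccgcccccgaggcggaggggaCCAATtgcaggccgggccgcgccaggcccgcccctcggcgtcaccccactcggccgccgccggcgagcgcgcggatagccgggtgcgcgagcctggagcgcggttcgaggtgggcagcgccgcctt
The Hsd11b1 window at chr1:193242311-193242610, minus strand, held a CCAAT alone. It lies inside the annotated gene, since longer transcripts begin further upstream.
Hsd11b1: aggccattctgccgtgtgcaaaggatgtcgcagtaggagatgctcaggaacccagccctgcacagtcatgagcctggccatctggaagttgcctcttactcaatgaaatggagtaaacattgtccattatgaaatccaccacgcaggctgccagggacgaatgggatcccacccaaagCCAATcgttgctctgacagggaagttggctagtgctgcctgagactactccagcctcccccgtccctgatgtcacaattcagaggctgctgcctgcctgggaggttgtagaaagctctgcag
A match is a run of letters and not a measured binding site. Among the other members with an entry, Nr3c2 held 1 match to GAANNTTC and 3 to CCAAT, Fkbp5 held 2 and Stip1 4 to CCAAT, and Ptges3 held none of the 4 motifs.

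Around the members, few genes of the rest of the chaperone cycle came near the limit. Of 11 other Hsp90 co-chaperone genes, 0 passed 1.3-fold in either direction, where 11.8% of all genes were higher and 13.7% lower, and the median difference was 0.14, near that of the members. The highest were Sgta (0.34) and Cdc37 (0.26), which brings kinases to Hsp90, and the lowest Chordc1 (-0.14) and Ppid (-0.10), the cyclophilin that competes with FKBP51 and FKBP52 for Hsp90. Of 11 genes on the Hsp70 side of the cycle 0 passed, with a median of 0.04 that became -0.07 relative to the reference genes. Bag1 (0.15) and Hspa1a (0.15) were the highest there, and Hspa4l (-0.377) and Hspa4 (-0.21), of the Hsp110 family that recharges Hsp70, the lowest. Hspa4l lay just inside the limit of 0.3785 and passed it when differences were centred on the median of all genes (-0.39) or set against the reference genes (-0.49). Hsp90b1 (-0.19), the Hsp90 of the endoplasmic reticulum, Trap1 (0.04), that of mitochondria, and the heat shock factor gene Hsf1 (-0.09) also stayed within it.

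Pgr and Esr1, the progesterone and oestrogen alpha receptor genes, differed between regions past the limit. Neither corticosteroid receptor gene did so on the deposited scale. Pgr and Esr1 were both over 1.3-fold lower in the dHPC, and below 0 on each scale. Pgr averaged 4.48 log2 CPM in the dHPC and 4.96 in the vHPC (-0.48), and Esr1 0.98 and 2.43 (-1.45). The Esr1 level in the dHPC is below the minimum of 1 log2 CPM used for the second background. Nr3c1 (0.13) and Nr3c2 (0.31) were above 0 and within the limit, but relative to the neuron markers Nr3c2 (0.40) passed it. The difference between these receptors was not tested. Esr2 was listed in the vHPC tables alone, at -1.99 log2 CPM. Of the genes listed per region, 2831 were unique to the vHPC (21088 in all) and 26 to the dHPC (18283 in all). Absence of Esr2 from the dHPC list is thus no measure of a lower level there. Of 10 receptor coregulators 0 passed the limit, 9 were below 0 and the median was -0.15, against 11.8% higher and 13.7% lower over all genes. Relative to the reference genes 1 of them, Ep300, was lower past it (-0.44). Ep300 (-0.33) and Ncoa2 (-0.23), a histone acetyltransferase and a p160 coactivator, were the lowest, and Smarca4 (0.02), a remodelling ATPase that works with the glucocorticoid receptor, and Nrip1 (-0.01), a corepressor, the highest.

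The other genes of corticosteroid metabolism and transport did not share the Hsd11b1 contrast. Of 5 measured, 0 were higher and 1 lower in the dHPC, where 11.8% of all genes were higher and 13.7% lower. With 5 genes these counts are a description and set nothing apart. The lower gene was Akr1c14, which reduces steroids, at 0.54 log2 CPM in the dHPC and 0.97 in the vHPC (-0.42). Both levels are below the minimum of 1 log2 CPM used for the second background. Abcb1a (-0.36) and Abcb1b (-0.36), genes of efflux pumps, lay just inside the limit, and both passed it relative to the reference genes. H6pd (0.04), which makes the cofactor that the Hsd11b1 enzyme needs, and Srd5a1 (0.14) were near 0. Hsd11b2, whose enzyme inactivates corticosterone, and Serpina6 were not analysed here.

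Markers matched the labelled regions in most genes. The dorsal markers Lct (2.24), Wfs1 (1.12) and Spink8 (0.49) were higher in the dHPC, and of the 5 ventral markers Trhr (-3.46), Dcn (-2.14), Grp (-1.89) and Htr2c (-1.06) were lower, while Coch did not differ beyond the limit (-0.05). Other cell types differed between the regions alongside Fkbp4 and Hsd11b1. The 5 oligodendrocyte markers Mbp, Mog, Mobp, Cnp and Mag were higher in the dHPC, by 1.08 to 1.40, with summed geometric mean CPM of 5468 in the dHPC and 2149 in the vHPC. Choroid plexus markers were higher in 4 of 5 cases, with sums of 1118 and 472 CPM, and 2 of 3 thalamus markers were, Prkcd (2.12) and Tcf7l2 (0.81), with sums of 104 and 68.5 CPM. Of the principal cell markers, Prox1 (0.63), C1ql2 (1.13) and Dsp (1.36), all of the dentate gyrus granule cells, and Neurod6 (0.39) were higher and Fibcd1 (-0.25), of CA1, was not, with sums of 739 and 544 CPM.

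By contrast, 0 of 6 astrocyte markers passed the limit, with sums of 2252 and 2254 CPM in the dHPC and vHPC. Of the 6 neuron markers 1 did (Gad2, -0.41), and their sums were 6182 and 6418. Of the microglia markers 1 of 6 was higher (C1qa, 0.57), with sums of 310 and 287, of the striatum markers 1 of 4 was (Drd1, 0.52), with sums of 22.7 and 22.1, and of the endothelial markers 2 of 6 were lower (Flt1, -0.51, and Slco1a4, -0.48), with sums of 158 and 197. No marker was absent from either region. Of the 9 reference genes, Ppia (0.46) and Actb (0.38) passed the limit as well. The part of these markers in the Fkbp4 and Hsd11b1 differences was not tested. In bulk tissue, fewer cells of a type and less RNA per cell cannot be told apart.

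**Figure D5:**
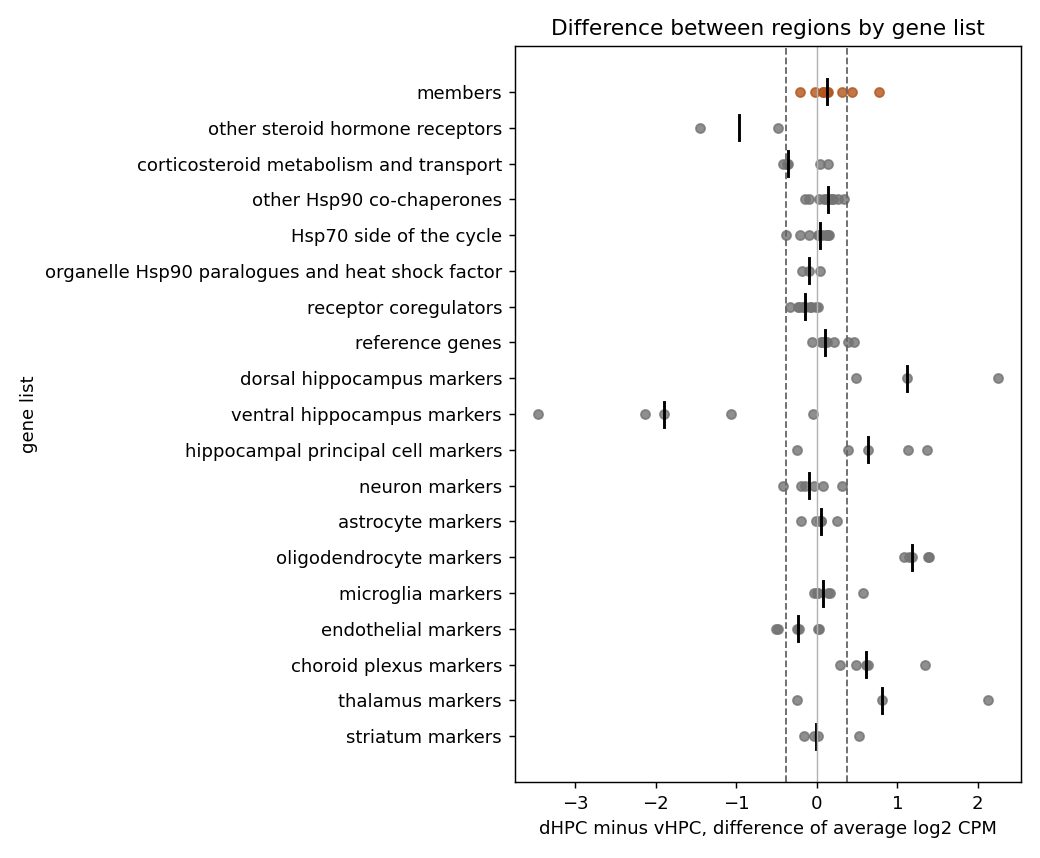
Difference between regions (x axis, dHPC minus vHPC, average log2 CPM) of every measured gene of each list (points) with the list's median (black bar), the 9 members in orange and the 1.3-fold limits dashed. The members other than Fkbp4 (0.44) and Hsd11b1 (0.78), and all co-chaperones, Hsp70 side genes and coregulators, lie between the limits. Pgr and Esr1 lie at -0.48 and -1.45, and the 5 oligodendrocyte markers lie between 1.08 and 1.40.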

How the data were processed

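RNA of 64 libraries was sequenced with a stranded kit. After removal of reads of low quality, the authors used STAR for alignment to GRCm38 and featureCounts for counting. Versions, strand setting and treatment of reads with several matches are not given in the sources used here. The authors fitted limma-voom per region and deposited 8 tables, one per region, sex and genotype. The average expression in the deposited tables is on the log2 scale (log2 CPM), and the residual degrees of freedom are a score of the authors' fit. The other columns hold the authors' comparison of CORT with vehicle (log2 fold changes, errors, t, p) and were not used. There were 0 columns of values per library.

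The average is the same in the 4 tables of a region (to 5e-06), and it was read once. The dHPC minus vHPC difference was called where it was over 1.3-fold, with a second background of genes averaging at least 1 log2 CPM. No test was made and no interval is given, because the averages carry no error, the errors in the comparison columns were not used, and depth per library is unknown. Exon lengths, coding alignments and 75-base windows, compared exactly and on both strands among annotated transcripts alone, came from the GENCODE annotation of GRCm38. A length was found for 99.9% of the genes (18244). Alternatives were a limit of 1.2-fold or 1.5-fold, centring on all genes, reference genes or neuron markers, other lengths, and pseudogenes added to a member. The calling rule was checked only on simulated differences of known size without noise. That check shows the rule was applied rightly and cannot give an error rate or stand in for the spread between libraries. Named were all members, the 2 highest and 2 lowest genes of each pathway list, genes past 1.3-fold and defining markers. Some listed genes are not reported here. Members and lists were chosen with earlier results of these data known. Python 3.11.15, numpy 2.4.6, pandas 2.3.3, biopython 1.88 and matplotlib 3.10.9 were used.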

Additional observations from a re-analysis of the deposited data

How the results depend on the processing

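Of 181 values recomputed under an alternative, 149 were labelled the same, and 0 called values changed direction. A member's difference was labelled the same if it kept its call, and a count, level or ratio if it moved by at most 1.5-fold. A count of 3 members in place of 2 was thus labelled the same. Some values could not change, since all members average at least 1 log2 CPM and most had no pseudogene to add. The tally is therefore no measure of stability. The number of members higher in the dHPC was 1 in place of 2 relative to the reference genes, and 1 at a limit of 1.5-fold, in both cases Hsd11b1. It was 3 at a limit of 1.2-fold and relative to the neuron markers (Nr3c2 at 0.40), Nr3c2 being the member gained. The share over all genes was computed only at 1.3-fold on the deposited scale, where 11.8% were higher in the dHPC. That share changes with the limit and the scale too, so these counts say nothing about the members as a set. Fkbp4 over Fkbp5, 2.67 on the log2 scale in the dHPC and 2.22 in the vHPC, was 1.44 and 0.98 with the longest transcript and 0.91 and 0.45 with the coding length. No paired analysis was possible because no values per library were analysed here, and libraries could not be left out for the same reason. The spread between libraries therefore limits every difference described, and it was not used here.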
